A study of Nicotiana tabacum with 6 samples.

Results

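Sugar and polyol transporters are the membrane carriers that move sucrose, glucose, fructose, inositol and sugar alcohols into, out of and between plant cells. Loci were taken where the protein description in the deposited table contained SWEET, sucrose transport, sugar transport, sugar carrier, hexose carrier, polyol transporter, monosaccharide or inositol transporter, and where the mean FPKM over the 6 libraries was at least 0.5. FPKM is the fragment count of a locus scaled by transcript length and by the number of fragments in the library. Of the 39825 loci in the table, 122 matched the words and 93 of those passed the minimum level. The minimum left out 29 loci. The weakest loci inside it were the SWEET1-like locus Niben261Chr11g1070003 (mean 0.538 FPKM) and the SWEET3b locus Niben261Chr06g0776026 (0.578 FPKM). The strongest loci outside it were the monosaccharide-sensing protein 2-like locus Niben261Chr15g1047001 (0.367 FPKM) and the SUC8-like locus Niben261Chr13g0871008 (0.353 FPKM).

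The explants had grown for 2 weeks with the synthetic auxin NAA (naphthaleneacetic acid) at 0.5 mg/L or at 0.1 mg/L, and 3 RNA-seq libraries were made for each treatment. The sample labels name the plant Nicotiana tabacum, whereas the study's methods name Nicotiana benthamiana and the locus names are those of the N. benthamiana genome Niben261. The methods describe cotyledon pieces forming callus and shoots on Murashige and Skoog medium with sucrose and the cytokinin 6-BA, and state that RNA-seq and a chromatin assay used one batch of explants. How the 3 replicates were taken is not described, so the p-values below measure the spread between these libraries, which may be technical.

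Many plant sugar carriers fall into 2 mechanistic groups. SWEET proteins let sugars pass in either direction along their gradient. Sucrose transporters, sugar transport proteins (STP), polyol transporters and inositol transporters couple the movement of sugar to that of protons. At the plasma membrane these protons are pumped out by plasma membrane ATPases. Monosaccharide-sensing proteins and ERD6-like carriers are best known from Arabidopsis, where they load and unload the vacuole. Explant cells in culture live largely on the sugar of the medium, so these carriers stand between the medium, the cell and its vacuole.

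Transporter transcripts were more often higher than lower in explants on 0.5 mg/L NAA. Of the 93 loci, 40 (43.0%) were higher and 7 (7.53%) were lower at an adjusted p under 0.05, and 46 did not pass. Over all 32443 loci tested, 21.7% were higher and 20.2% lower by the same rule (limma on log2(FPKM + 1), Benjamini-Hochberg adjustment). The median log2 fold change (log2FC, 0.5 over 0.1 mg/L NAA) was 0.23 for the transporters, with 63 values above and 30 below 0, and 0.02 for all loci tested. Values of the 3 libraries on 0.5 mg/L NAA lay wholly above those on 0.1 mg/L NAA at 46 transporter loci and wholly below at 12, where the shares over all loci tested were 28.8% above and 25.9% below.

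Most of the changes were small. A |log2FC| of at least 1, the further condition for calling a locus differentially expressed, was reached by 13 higher loci (14.0%) and 2 lower loci (2.15%), against 3.24% and 2.62% of all loci tested (5.86% in both directions together). The 13 were 6 SWEET, 3 polyol transporter, 3 sugar transport protein loci and 1 ERD6-like locus. Sucrose transporters, monosaccharide-sensing proteins and inositol transporters held none. A group of 7 weak loci passed the minimum level only through the treatment in which they were higher, so they had to differ and their calls support nothing. The 86 loci over the minimum in both treatments held 38 higher and 5 lower, with 12 and 1 of them differentially expressed. Of the 47 calls, 28 (22 higher, 6 lower) held in every alternative that tested the locus.

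**Figure D1:**
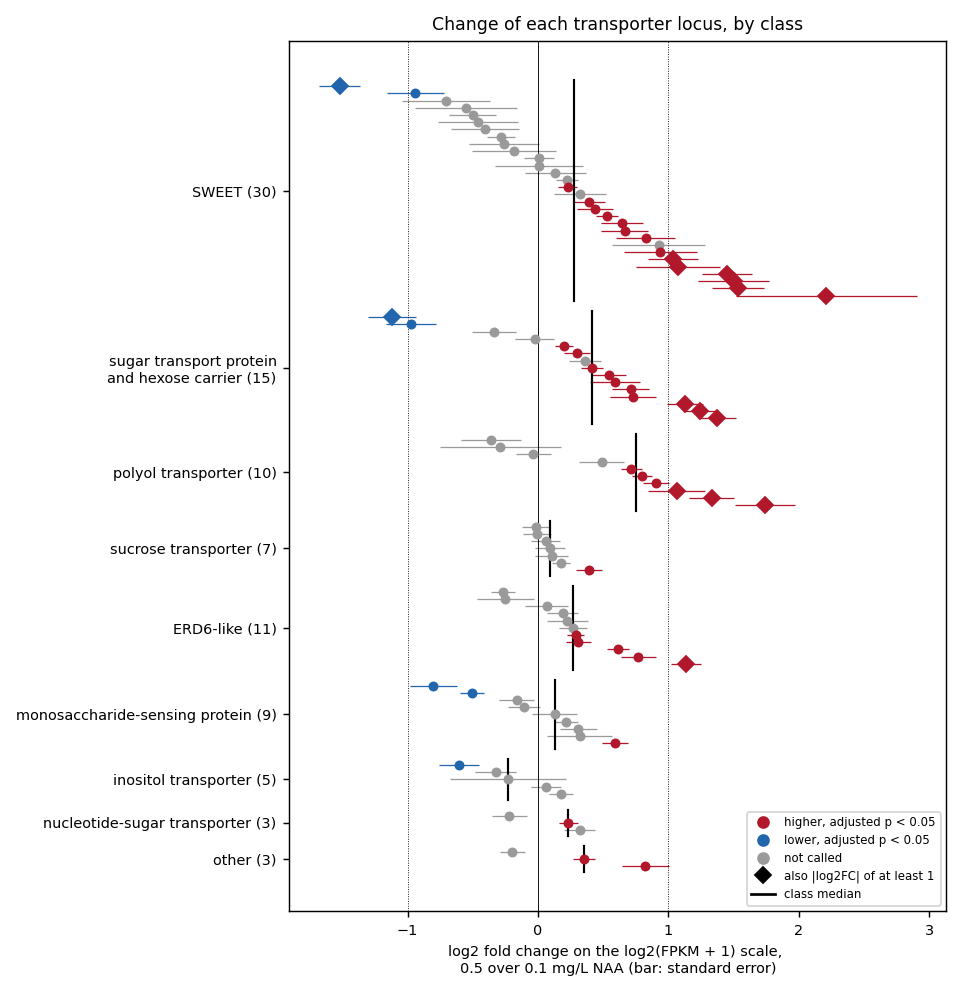
Log2 fold change of each of the 93 transporter loci (0.5 over 0.1 mg/L NAA, horizontal axis, with its standard error) by class, with the number of loci in parentheses, the class median as a vertical bar and dotted lines at a log2FC of 1 and -1. The median lies at 0.75 for the 10 polyol transporters, at 0.41 for the 15 sugar transport proteins and hexose carriers, and at 0.09 for the 7 sucrose transporters.

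Several properties of the libraries moved with these counts. The FPKM values of a library summed to 986722 to 1015420 on 0.5 mg/L NAA and to 1140994 to 1155639 on 0.1 mg/L NAA. When the libraries were rescaled to the same total (TPM), the median log2FC of all loci became 0.19 and that of the transporters 0.42. Under TPM 50 transporters were higher and 7 lower, and 34.25% of all loci tested were higher and 12.19% lower. Of the calls over all loci, 73.8% were then in the higher direction, against 51.7% in the values as deposited, while among transporters the share was 87.7%, against 85.1%. Of the 93 transporters, 61 lay above the median of all loci under both scalings. Rescaling by the library total shifts all loci nearly alike, so this count could hardly differ and adds no support. Replicate 3 on 0.5 mg/L NAA gave the highest value at 12 of the 13 differentially expressed higher transporters (92.3%), and at 50.7% of the 1051 such loci in the whole table. Without that library 32 transporters were higher and 9 lower, against 17.8% higher and 17.2% lower over all loci tested. Of the transporters, 9 and 4 were differentially expressed, against 913 and 645 of all 32397 loci tested.

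Marker genes of leaf tissue also differed between the treatments. Leaf mesophyll genes, described as chlorophyll a-b binding proteins or small Rubisco subunits, were measured at 46 of 51 matched loci, of which 39 were lower and 0 higher. Their summed level was 2860 to 3850 FPKM on 0.5 mg/L NAA and 7632 to 8442 FPKM on 0.1 mg/L NAA. Phloem genes summed to 153 to 212 FPKM, against 281 to 288 FPKM, with 1 of 8 tested loci higher and 3 lower. Of the tested loci, 10 of 46 xylem and secondary wall genes were higher (21.7%) and 15 lower (32.6%). Of 21 shoot meristem genes, 7 were higher (33.3%) and 5 lower (23.8%), and 3 of 4 loci matched by root words were higher. Over all loci tested, 21.7% were higher and 20.2% lower. The higher share of the xylem genes equals that over all loci, and the lower share of the meristem genes is near it. No locus of the mesophyll, phloem, xylem, shoot meristem or root lists was at 0 in all 6 libraries. The part of these marker differences in the transporter values was not tested, and in bulk RNA fewer cells of a type cannot be told apart from less RNA per cell.

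The SWEET facilitators, the largest class with 30 loci, held 14 higher (46.7%) and 2 lower (6.67%) loci and a median log2FC of 0.28. Over all loci tested, 21.7% were higher and 20.2% lower. The 14 include Niben261Chr06g0685006 and Niben261Chr10g0072002, and the 2 include Niben261Chr05g0352003. These loci passed the minimum level only through the treatment in which they were higher, so their calls support nothing. Of the 6 differentially expressed higher loci, 4 were described as SWEET12-like, SWEET9-like or NEC1-like and 2 as N3-like. The NEC1-like one is Niben261Chr10g0072002. SWEET12 of Arabidopsis releases sucrose from leaf phloem cells, SWEET9 secretes sucrose into nectar, and NEC1 was described from petunia nectaries. All 5 SWEET12-like loci were higher in each library on 0.5 mg/L NAA than in any on 0.1 mg/L NAA, as were 28.8% of all loci tested. Of the 5, 4 passed the test, 1 of which was over the minimum level on 0.5 mg/L NAA only. The 5 include pairs with one closest protein, so they are not independent measurements. Among N3-like loci, named after a nodulin gene, 3 of 4 passed, as did 2 of 3 SWEET9-like loci. Without replicate 3 on 0.5 mg/L NAA the SWEET class held 9 higher and 4 lower loci, where 17.8% of all loci tested were higher and 17.2% lower.

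The SWEET9-like locus Niben261Chr10g0993007 (chromosome 10) was the strongest of the differentially expressed transporters, with 121, 166 and 220.2 FPKM on 0.5 mg/L NAA in replicates 1 to 3, against 61.5, 57.9 and 59.0 FPKM on 0.1 mg/L NAA. The lowest library on 0.5 mg/L NAA was thus far above the highest on 0.1 mg/L NAA, and the libraries on 0.5 mg/L NAA were spread much more widely. Its mean level was 2.84-fold higher, with a log2FC of 1.45 ± 0.19 (SE, limma, adjusted p = 0.0013). A second SWEET9-like locus with the same closest protein, Niben261Chr13g1101002 on chromosome 13, had 42.2, 64.0 and 86.7 FPKM, against 35.1, 36.8 and 31.4 FPKM (log2FC 0.82, limma, adjusted p = 0.024), a call lost without any 1 of the 0.1 mg/L NAA libraries. Here too replicate 3 on 0.5 mg/L NAA was the highest, and replicate 1 was close to the 0.1 mg/L NAA libraries. The remaining SWEET9-like locus, Niben261Chr10g0994011, had 28.5, 26.1 and 21.7 FPKM, against 30.5, 29.9 and 32.7 FPKM, and did not pass (log2FC -0.28, limma, adjusted p = 0.064).

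A pair of SWEET12-like loci with one closest protein changed almost equally. Niben261Chr08g0352008 (chromosome 8) had 18.0, 25.4 and 33.4 FPKM on 0.5 mg/L NAA, against 7.21, 7.99 and 8.68 FPKM on 0.1 mg/L NAA. Niben261Chr06g0685007 (chromosome 6) had 6.64, 5.16 and 11.8 FPKM, against 1.98, 2.60 and 1.47 FPKM. Both groups of libraries were separate at both loci. The log2FC was 1.53 ± 0.20 on chromosome 8 and 1.5 ± 0.27 on chromosome 6 (SE, limma, adjusted p = 0.0013 and 0.0045).

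The more abundant SWEET12-like loci moved less. Niben261Chr06g0682008 had 129.8, 134 and 127 FPKM on 0.5 mg/L NAA, against 90.0, 81.6 and 99.9 FPKM on 0.1 mg/L NAA, a 1.44-fold difference (log2FC 0.53, limma, adjusted p = 0.0028). The strongest locus of the class, Niben261Chr08g0351001, had 128, 154 and 133 FPKM, against 115, 116 and 124 FPKM. Its libraries were separate by a small margin and the difference did not pass in the values as deposited (log2FC 0.22 ± 0.09, SE, limma, adjusted p = 0.075), although it did under TPM, under quantile normalization and without replicate 1 on 0.5 mg/L NAA. The fifth locus, Niben261Chr06g0685006, was weak, with 0.98, 1.01 and 2.64 FPKM, against 0.43, 0.44 and 0 FPKM, and passed the minimum level only through 0.5 mg/L NAA.

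Among N3-like loci, Niben261Chr06g0671010 had 18.0, 18.1 and 21.9 FPKM on 0.5 mg/L NAA, against 10.9, 10.3 and 6.17 FPKM on 0.1 mg/L NAA (log2FC 1.03 ± 0.20, SE, limma, adjusted p = 0.0051). Niben261Chr01g1585002 had 18.1, 25.9 and 47.3 FPKM, against 14.0, 15.4 and 9.78 FPKM. Replicate 3 on 0.5 mg/L NAA alone stood far above the rest, and the log2FC of 1.07 ± 0.32 (SE, limma, adjusted p = 0.031) did not pass with the replicate number as a block or without any 1 of the 0.1 mg/L NAA libraries. The most abundant N3-like locus, Niben261Scf08717g0000002 on an unplaced scaffold, had 95.7, 153 and 117 FPKM, against 76.0, 70.6 and 82.6 FPKM (log2FC 0.65, limma, adjusted p = 0.015), a call lost without replicate 1 or replicate 2 on 0.1 mg/L NAA.

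The NEC1-like locus Niben261Chr10g0072002 had the largest log2FC of all the transporters and one of the least even sets of values. It had 5.82, 0.74 and 14.8 FPKM on 0.5 mg/L NAA, against 0.10, 0.21 and 0.42 FPKM on 0.1 mg/L NAA. Replicate 2 on 0.5 mg/L NAA was close to the 0.1 mg/L NAA libraries, and replicates 1 and 3 were far above them. The locus passed the minimum level only through 0.5 mg/L NAA. The log2FC was 2.21 ± 0.69 (SE, limma, adjusted p = 0.037). It did not pass without replicate 1 or replicate 3 on 0.5 mg/L NAA, without any 1 of the 0.1 mg/L NAA libraries, or with no filter on low values, and its adjusted p ran from 0.0011 to 0.10 over the alternatives.

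The SWEET1 group held calls in both directions. SWEET1 moves glucose in Arabidopsis. Its 9 loci held 2 higher and 2 lower, with a median log2FC of -0.46, which without replicate 3 on 0.5 mg/L NAA was -0.10 with 1 higher and 3 lower. Numbered close together were 7 loci on chromosome 5 (Niben261Chr05g0352003 to Niben261Chr05g0354013) and chromosome 11 (Niben261Chr11g1069009 to Niben261Chr11g1070005). They held 0 higher and 2 lower (28.6%, against 20.2% lower over all loci tested). Their median was -0.55 in the values as deposited, -0.39 under TPM and -0.38 without replicate 3 on 0.5 mg/L NAA. Niben261Chr11g1069011 carried the lowest log2FC of all the transporters on the log2(FPKM + 1) scale, where falls of weak loci are understated, with 14.4, 10.3 and 8.73 FPKM on 0.5 mg/L NAA, against 32.7, 33.1 and 33.9 FPKM on 0.1 mg/L NAA. Its levels on 0.5 mg/L NAA were 0.336 of those on 0.1 mg/L NAA, with no overlap (log2FC -1.52 ± 0.16, SE, limma, adjusted p = 5.9e-04). Its neighbour Niben261Chr11g1069009 had 11.6, 6.89 and 2.91 FPKM, against 8.18, 8.75 and 12.7 FPKM, with overlapping libraries (log2FC -0.55, limma, adjusted p = 0.29). On chromosome 5, Niben261Chr05g0352003 was near 0 on 0.5 mg/L NAA, with 0.15, 0 and 0.15 FPKM, against 1.72, 1.11 and 0.63 FPKM. It is counted among the 2 lower loci but passed the minimum level only through 0.1 mg/L NAA, so its call supports nothing. The 28.6% includes that call and is not read as an excess of lower loci. Niben261Chr11g1070003 likewise passed only through 0.1 mg/L NAA, with mean levels of 0.287 against 0.79 FPKM, and was not called. Its log2FC of -0.46 is the median of the 9 loci, so that median rests on a locus of this kind. The remaining 2 SWEET1-like loci, which share a closest protein with each other, were both higher. The abundant Niben261Chr05g1128002 had 90.1, 87.5 and 79.8 FPKM, against 75.3, 73.4 and 70.5 FPKM (log2FC 0.23, limma, adjusted p = 0.037), and Niben261Chr13g0981004 had a log2FC of 0.44 (limma, adjusted p = 0.036). Each of these 2 calls was lost in 7 of 14 alternatives, among them the replicate block and the fits without any 1 of the 0.1 mg/L NAA libraries.

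**Figure D2:**
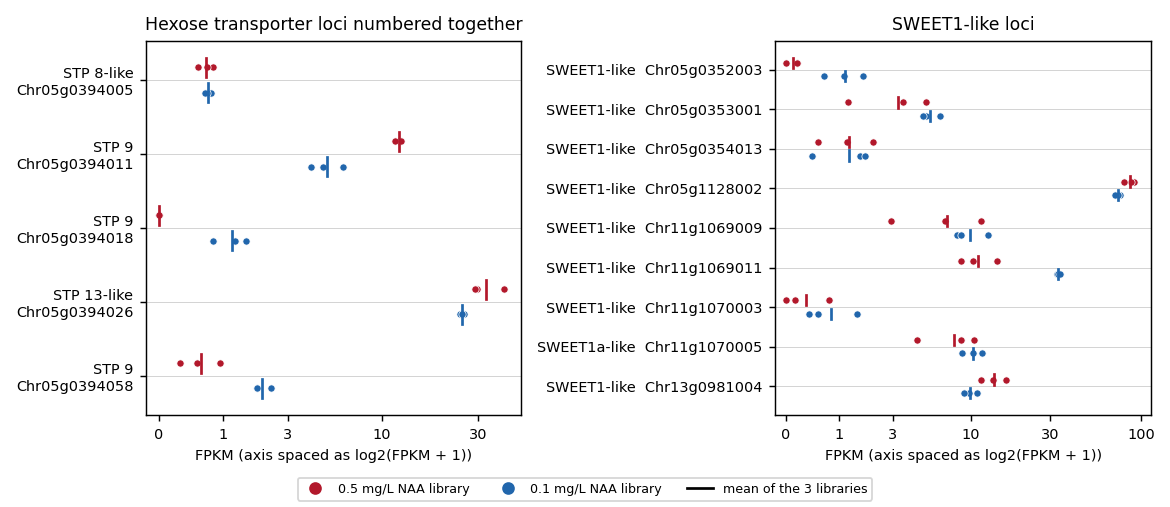
FPKM in each library (points; axis spaced as log2(FPKM + 1)) and the mean of 3 libraries (bars) for the 5 hexose transporter loci numbered together on chromosome 5 and for the 9 SWEET1-like loci, with STP for sugar transport protein and the prefix Niben261 left out. Niben261Chr05g0394011 was higher and Niben261Chr05g0394018 and Niben261Chr05g0394058 were lower on 0.5 mg/L NAA, and Niben261Chr11g1069011 lay between 8.73 and 14.4 FPKM, below all 3 libraries on 0.1 mg/L NAA.

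The SWEET16 and SWEET17 group, which in Arabidopsis moves fructose and other hexoses across the vacuolar membrane, showed little common movement. Of its 4 loci 1 was higher, the SWEET16-like Niben261Chr09g0973002 with 9.75, 15.8 and 12.1 FPKM on 0.5 mg/L NAA, against 8.28, 6.09 and 8.01 FPKM on 0.1 mg/L NAA (log2FC 0.66, limma, adjusted p = 0.022). Without replicate 3 on 0.5 mg/L NAA the group held 0 higher and 1 lower at an adjusted p under 0.05 (limma), the lower one being the SWEET17-like Niben261Chr04g0683010, and the higher call was also lost without replicate 2 on 0.1 mg/L NAA. The 2 SWEET2a-like loci had log2FC of 0.39, a call lost in 6 of 14 alternatives, and 0.00.

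Sugar transport proteins and hexose carriers take up glucose and other hexoses with protons at the plasma membrane. Of their 15 loci, 10 were higher (66.7%) and 2 lower (13.3%), against 21.7% and 20.2% of all loci tested. Their median log2FC was 0.41. The higher count was 8 under median-of-ratios, 7 under quantile normalization and 8 without replicate 3 on 0.5 mg/L NAA. The sugar carrier loci Niben261Chr06g1404011 and Niben261Chr16g0325001 each lost the higher call in 10 of 14 alternatives. Of the 2 lower loci, Niben261Chr05g0394018 passed the minimum level only through 0.1 mg/L NAA, so its call supports nothing. The 2 loci described as sugar transport protein 13, a high-affinity hexose symporter in Arabidopsis, rose by similar factors. Niben261Chr17g0890004 (chromosome 17) had 83.4, 96.5 and 124 FPKM on 0.5 mg/L NAA, against 41.8, 40.1 and 43.1 FPKM on 0.1 mg/L NAA. Niben261Chr13g0319016 (chromosome 13) had 44.6, 59.3 and 68.4 FPKM, against 20.7, 20.6 and 22.6 FPKM. Every library on 0.5 mg/L NAA was above every library on 0.1 mg/L NAA at both loci. Their means were 2.43-fold and 2.70-fold higher, with log2FC of 1.24 ± 0.14 and 1.37 ± 0.15 (SE, limma, adjusted p = 6.9e-04 and 6.6e-04), and both passed in each alternative run, with log2FC of 1.09 to 1.55.

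The most abundant hexose carrier, the sugar carrier protein C-like Niben261Chr07g1355001, had 83.3, 93.3 and 79.9 FPKM on 0.5 mg/L NAA, against 67.5, 60.6 and 63.3 FPKM on 0.1 mg/L NAA, a smaller and non-overlapping difference (log2FC 0.41, limma, adjusted p = 0.0062). The sugar transport protein 14-like Niben261Chr01g0873008 had 24.9, 24.2 and 34.9 FPKM, against 15.8, 17.5 and 16.2 FPKM (log2FC 0.71, limma, adjusted p = 0.0061). Both HEX6-like carriers, Niben261Chr06g0933014 and Niben261Chr06g0933004, were higher with log2FC of 0.59 and 0.54 at mean levels under 5 FPKM, calls lost in 6 and 1 of 14 alternatives.

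A group of 5 hexose transporter loci numbered Niben261Chr05g0394 on chromosome 5 split in both directions, with log2FC of -1.12 to 1.13. It includes 3 loci described as sugar transport protein 9 with 1 closest protein. Niben261Chr05g0394011 had 12.2, 12.5 and 11.7 FPKM on 0.5 mg/L NAA, against 4.84, 4.15 and 6.25 FPKM on 0.1 mg/L NAA, a 2.39-fold higher mean with no overlap (log2FC 1.13 ± 0.14, SE, limma, adjusted p = 9.1e-04). Niben261Chr05g0394058 had 0.50, 0.26 and 0.93 FPKM, against 1.86, 1.88 and 2.34 FPKM (log2FC -0.97, limma, adjusted p = 0.0061). Niben261Chr05g0394018 was listed at 0 in all 3 libraries on 0.5 mg/L NAA, against 1.55, 0.78 and 1.26 FPKM. It passed the minimum level only through 0.1 mg/L NAA, and its fitted log2FC of -1.12, which places it among the differentially expressed loci, depends on the pseudocount. The strongest locus of the group, the sugar transport protein 13-like Niben261Chr05g0394026, had 39.9, 29.4 and 28.9 FPKM, against 24.5, 25.6 and 24.99 FPKM, and did not pass (log2FC 0.36, limma, adjusted p = 0.052). How reads shared by such near copies were assigned is not stated, so the split within the group is uncertain.

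**Figure D3:**
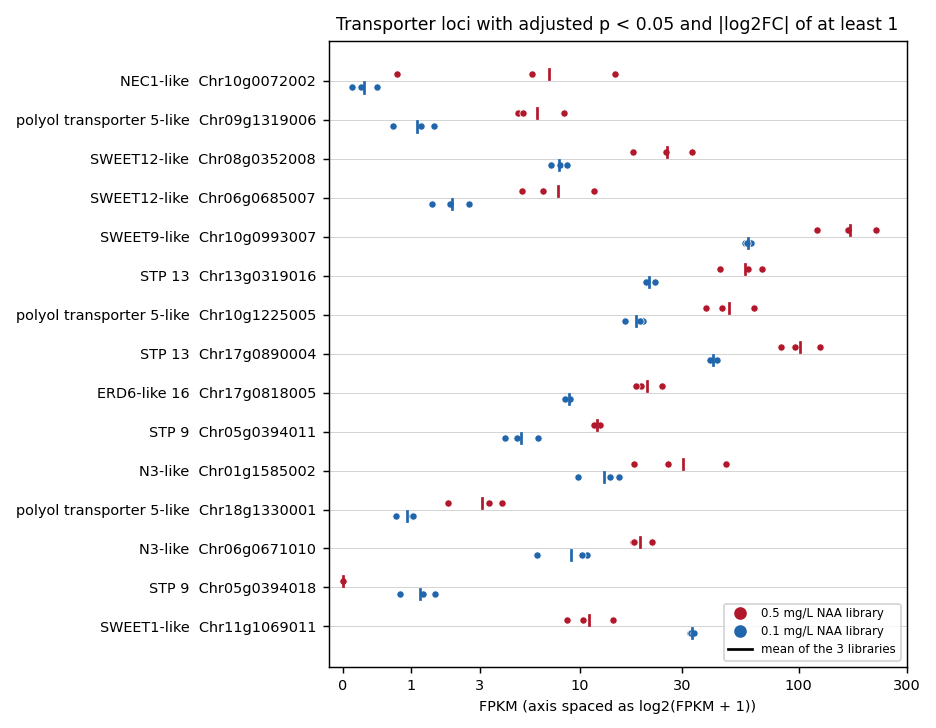
FPKM in each library (points; axis spaced as log2(FPKM + 1)) and the mean of 3 libraries (bars) for the 15 differentially expressed transporter loci, ordered by log2 fold change, with STP for sugar transport protein and the prefix Niben261 left out. The 15 loci were chosen by their difference in these same libraries, so the separation of the 2 treatments at all 15 adds no support. On this axis the spread on 0.5 mg/L NAA was widest for NEC1-like, from 0.74 to 14.8 FPKM.

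Polyol transporters had the highest median of any class, at 0.75, with 6 of 10 loci higher and 0 lower. These carriers take up sugar alcohols, inositol and some monosaccharides with protons in Arabidopsis. The abundant polyol transporter 5-like locus Niben261Chr10g1225005 (chromosome 10) had 38.5, 45.7 and 63.1 FPKM on 0.5 mg/L NAA, against 20.02, 19.3 and 16.4 FPKM on 0.1 mg/L NAA. Its mean was 2.65-fold higher without overlap (log2FC 1.33 ± 0.17, SE, limma, adjusted p = 0.0012). Niben261Chr09g1319006 (chromosome 9) was weaker and had the second largest log2FC of the transporters, with 4.88, 5.21 and 8.43 FPKM, against 1.53, 1.21 and 0.66 FPKM (1.74 ± 0.23, SE, limma, adjusted p = 0.0013). Niben261Chr18g1330001 (chromosome 18) had 3.41, 1.90 and 4.04 FPKM, against 0.72, 1.01 and 1.05 FPKM (log2FC 1.06 ± 0.22, SE, limma, adjusted p = 0.0075). All 3 were separate between treatments, while the fourth polyol transporter 5-like locus, Niben261Chr03g1708007, had 0.32, 0.65 and 1.05 FPKM, against 0.65, 1.32 and 1.47 FPKM, and did not pass (log2FC -0.36, limma, adjusted p = 0.25).

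The 2 loci that the study lists as PLT3 and PLT6 belong to this class. PLT is an abbreviation both of PLETHORA, an AP2-type transcription factor of stem cell niches, and of polyol transporter, and both loci are described in the table as probable polyol transporter 6. Niben261Chr07g0790007, listed as PLT3, had 58.6, 50.5 and 59.4 FPKM on 0.5 mg/L NAA, against 33.8, 34.3 and 33.1 FPKM on 0.1 mg/L NAA. Niben261Chr15g1229010, listed as PLT6, had 18.1, 17.1 and 16.9 FPKM, against 9.47, 9.62 and 9.69 FPKM. Libraries of one treatment were very close at both loci, and the treatments were far apart. The mean levels were 1.67-fold and 1.81-fold higher, with log2FC of 0.72 ± 0.08 and 0.79 ± 0.08 (SE, limma, adjusted p = 7.6e-04 and 4.9e-04), so neither reached a log2FC of 1 and both were higher in all 14 alternatives run. The probable polyol transporter 4 locus Niben261Chr08g1125006 moved alike, with 16.8, 14.8 and 17.6 FPKM, against 9.12, 7.82 and 7.99 FPKM (log2FC 0.90, limma, adjusted p = 7.4e-04).

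Sucrose transporters, the proton symporters that load sucrose into the phloem and, for the SUC4 type, release it from the vacuole, differed little. Of 7 loci 1 was higher and 0 lower, with a median log2FC of 0.09. The locus described as sucrose transporter 1-1, Niben261Chr05g0266003, was the most abundant transporter of all, with 164, 166 and 158 FPKM on 0.5 mg/L NAA, against 141, 153 and 137 FPKM on 0.1 mg/L NAA. The libraries were separate but close, and the difference did not pass (log2FC 0.18 ± 0.07, SE, limma, adjusted p = 0.074) except under TPM and quantile normalization. Its partner on chromosome 11, Niben261Chr11g1020007, overlapped between treatments, with 114, 95.5 and 86.8 FPKM, against 88.8, 104 and 81.4 FPKM. The SUC4-like Niben261Chr19g0533002 had 24.3, 28.0 and 22.4 FPKM, against 18.8, 19.6 and 17.7 FPKM (log2FC 0.39, limma, adjusted p = 0.016), a call lost without replicate 1 or replicate 3 on 0.1 mg/L NAA. The other 2 SUC4-like loci and the 2 SUC3 loci had log2FC of -0.02 to 0.09.

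ERD6-like carriers, named after an Arabidopsis gene induced early by drought, held 5 higher and 0 lower of 11 loci, with a median log2FC of 0.27. The ERD6-like 16 locus Niben261Chr17g0818005 (chromosome 17) had 19.6, 18.4 and 24.3 FPKM on 0.5 mg/L NAA, against 9.04, 9 and 8.52 FPKM on 0.1 mg/L NAA, a 2.35-fold higher mean (log2FC 1.13 ± 0.11, SE, limma, adjusted p = 5.3e-04). The most abundant of the class, the ERD6-like 5 locus Niben261Chr10g0400002, had 81.5, 76.3 and 83.6 FPKM, against 66.7, 66.3 and 64.1 FPKM. Its libraries did not overlap, and the difference was small (log2FC 0.29, limma, adjusted p = 0.011). Both ERD6-like 6 loci were higher, with log2FC of 0.61 at Niben261Chr01g1199014 and 0.31 at Niben261Chr11g0569001, where the call was lost in 6 of 14 alternatives, and the ERD6-like 4 locus Niben261Chr19g0625007 had a 2.00-fold higher mean (log2FC 0.77, limma, adjusted p = 0.0040).

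Vacuolar loaders showed mixed changes. All 9 monosaccharide-sensing protein loci were described as monosaccharide-sensing protein 2-like, the tonoplast carrier that stores hexoses in the vacuole, and 1 was higher and 2 lower. Niben261Chr03g0203003 had 8.93, 6.78 and 5.03 FPKM on 0.5 mg/L NAA, against 12.6, 11.5 and 13.6 FPKM on 0.1 mg/L NAA (log2FC -0.80 ± 0.18, SE, limma, adjusted p = 0.0098). Niben261Chr10g0420016 was also lower, with 13.3, 11.7 and 11.8 FPKM, against 19.5, 16.7 and 17.3 FPKM (log2FC -0.51, limma, adjusted p = 0.0048). In contrast, Niben261Chr14g0833019 was higher, with 12, 12.8 and 11.9 FPKM, against 8.67, 7.87 and 6.90 FPKM (log2FC 0.59, limma, adjusted p = 0.0037). The treatments were separate at these 3 loci and overlapped at the other 6, including the strongest of the class, Niben261Chr09g1227014, with 29.9, 28.4 and 24.5 FPKM, against 24.6, 22.4 and 23.6 FPKM.

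Inositol transporters were the only class with a negative median (-0.23 over 5 loci), a sign that turned with a minimum mean of 1 FPKM, with a pseudocount of 0.1 and without replicate 1 on 0.1 mg/L NAA. The inositol transporter 1 locus Niben261Chr13g1392003, a tonoplast symporter in Arabidopsis, had 1.48, 1.26 and 1.04 FPKM on 0.5 mg/L NAA, against 2.59, 1.99 and 2.78 FPKM on 0.1 mg/L NAA (log2FC -0.61, limma, adjusted p = 0.016). That call was lost without replicate 1 or replicate 3 on 0.1 mg/L NAA. The much stronger inositol transporter 1 locus on chromosome 5, Niben261Chr05g1005005, had 40.7, 35.2 and 43.8 FPKM, against 35.0, 34.2 and 36.1 FPKM, with overlapping libraries (log2FC 0.17, limma, adjusted p = 0.16).

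The words of the description also caught loci of other function. Of 3 nucleotide-sugar transporters, which feed the Golgi apparatus and not the cell with sugar, Niben261Chr02g1293004 was higher, with 64.6, 65.0 and 63.9 FPKM on 0.5 mg/L NAA, against 50.5, 56.2 and 57.8 FPKM on 0.1 mg/L NAA (log2FC 0.23, limma, adjusted p = 0.035), a call lost in 7 of 14 alternatives. Both SWEETIE loci, whose Arabidopsis protein is no member of the SWEET family, were higher, with log2FC of 0.82 at Niben261Chr16g0091001 and 0.35 at Niben261Chr16g0091015 (limma, adjusted p = 0.0097 and 0.013), and the call at the second was lost without replicate 1 on 0.1 mg/L NAA. Without the nucleotide-sugar transporters and the 3 unclassed loci, 37 of 87 transporters were higher and 7 lower, with a median log2FC of 0.23.

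Many of the transporters occurred as copies with one closest protein, mostly on different chromosomes. There were 20 such proteins, covering 42 loci and in 18 cases matched by 2 loci. The log2FC had one sign within 14 of the 20. With 63 of the 93 transporters above 0, loci with different closest proteins would also often have one sign, and the 2 cases were not compared. The closest agreement was in the SWEET12-like pair on chromosomes 8 and 6 (1.53 and 1.5) and the widest gap in the sugar transport protein 9 loci of chromosome 5 (1.13 to -1.12). For the pair of sugar transport protein 12-like loci, Niben261Chr13g0434007 had a log2FC of 0.73 (limma, adjusted p = 0.015, lost without replicate 1 or replicate 2 on 0.1 mg/L NAA) and Niben261Chr17g0614007 of -0.34 (limma, adjusted p = 0.14). These copies share sequence, so they are not independent measurements.

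**Figure D4:**
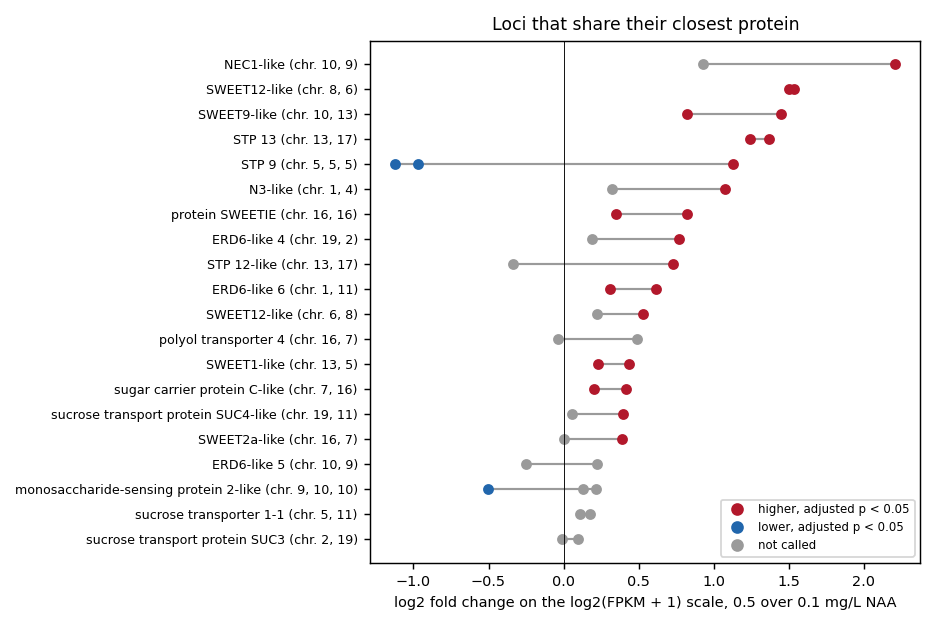
Log2 fold change (0.5 over 0.1 mg/L NAA) of the 42 transporter loci that share their closest protein with another transporter locus, 1 row for each of the 20 proteins, with the chromosomes in parentheses and STP for sugar transport protein. The 2 sugar transport protein 13 loci lie together at 1.24 and 1.37, and the 3 sugar transport protein 9 loci range from -1.12 to 1.13.

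Summed levels show which classes carried most of the transcripts. The 93 loci together had 2220, 2292 and 2475 FPKM on 0.5 mg/L NAA, against 1723, 1717 and 1723 FPKM on 0.1 mg/L NAA, and their mean sum was 1.35-fold higher. They made up 0.220% to 0.251% of the summed FPKM of a library, against 0.149% to 0.151%. SWEET loci gave 41.4% ± 2.82 of the transporter sum on 0.5 mg/L NAA, against 39.2% ± 0.68 on 0.1 mg/L NAA (SD, n = 3 each). Sucrose transporters gave 14.1% ± 1.64, against 17.1% ± 1.19, and sugar transport proteins with hexose carriers 15.9% ± 0.40, against 12.8% ± 0.28. The sum was 1.93-fold higher for polyol transporters, 1.69-fold for sugar transport proteins and hexose carriers, 1.43-fold for SWEET loci and 1.11-fold for sucrose transporters. For monosaccharide-sensing proteins it was 0.985 of that on 0.1 mg/L NAA, and this direction turned under TPM, without replicate 2 or replicate 3 on 0.5 mg/L NAA and without replicate 1 on 0.1 mg/L NAA. The 12 most abundant loci held 54.7% of the mean sum. Sums were not tested.

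**Figure D5:**
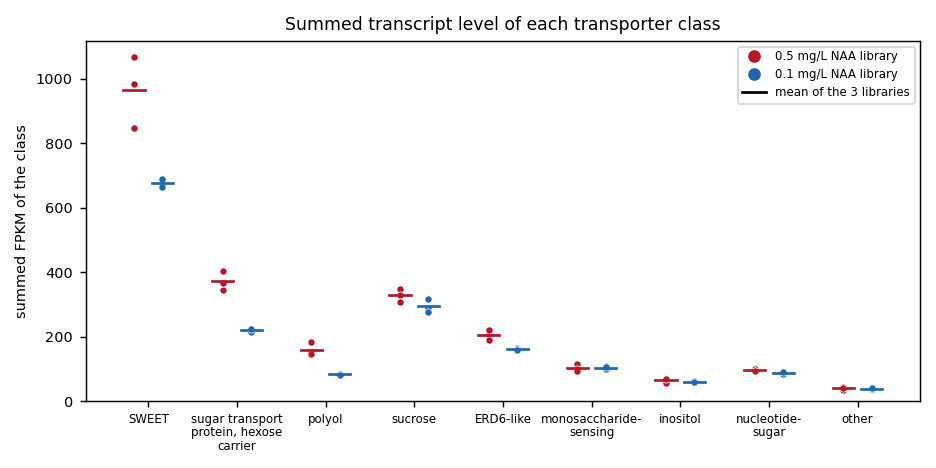
Summed FPKM of each transporter class (vertical axis) in each library (points) and the mean of 3 libraries (bars), by treatment. The 3 SWEET sums on 0.5 mg/L NAA run from 846 to 1066 FPKM, above the 664 to 689 FPKM on 0.1 mg/L NAA, and the sums of sucrose transporters overlap.

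The gene ontology terms in the table were not used to choose the loci and gave a further description. Of the 93 loci, 67 had any term, and 62 carried carbohydrate transmembrane transport, a term found on 87 of all loci tested. The 32 loci with carbohydrate:proton symporter activity held 19 higher and 2 lower with a median log2FC of 0.36, against 21 higher and 5 lower and a median of 0.18 for the 61 without it. Loci placed at the plasma membrane numbered 44, with 24 higher and 3 lower, and those placed at the vacuole 18, with 7 higher and 3 lower. These differences were not tested. Response to auxin was a term of 0 of the 93 transporters, against 473 (1.46%) of all loci tested, a share too small for 0 of 93 to be read as a lack.

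Related genes supply, pump for or use the carried sugars. Of 107 related loci tested (130 matched), 31 (29.0%) were higher and 12 (11.2%) lower, against 21.7% and 20.2% of all loci tested. Their median log2FC was 0.15. Differentially expressed were 2 higher (1.87%) and 3 lower (2.80%), against 3.24% and 2.62% of all loci tested. The plasma membrane ATPases, whose proton gradient drives sugar symport, held 4 higher and 0 lower of 6 loci. The strongest, Niben261Chr18g0421002, had 285, 279 and 302 FPKM on 0.5 mg/L NAA, against 208, 203 and 216 FPKM on 0.1 mg/L NAA, with no overlap (log2FC 0.46 ± 0.07, SE, limma, adjusted p = 0.0017). Under TPM 53 related loci were higher and 6 lower, against 34.25% higher and 12.19% lower over all loci tested.

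Enzymes that cleave sucrose differed among themselves. Invertases, which split sucrose into glucose and fructose, held 7 higher and 1 lower of 23 loci, and the strongest, the cell wall enzyme at Niben261Chr01g1638006, had 56.2, 43.8 and 95.2 FPKM on 0.5 mg/L NAA, against 34.2, 31.6 and 34.0 FPKM on 0.1 mg/L NAA. Its call (log2FC 0.87 ± 0.25, SE, limma, adjusted p = 0.025) was lost without any 1 of the 0.1 mg/L NAA libraries. Sucrose synthases, which cleave sucrose to UDP-glucose and fructose, held 4 higher and 2 lower of 13 loci. The most abundant, Niben261Chr19g0106014, had 201, 195 and 147 FPKM, against 348, 335 and 356 FPKM, a wide separation below the 0.1 mg/L NAA libraries (log2FC -0.95 ± 0.12, SE, limma, adjusted p = 0.0012).

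Of the 4 sucrose-phosphate synthase loci, which make sucrose, 3 were higher, among them Niben261Chr06g1366002 with 42.8, 36.7 and 41.7 FPKM on 0.5 mg/L NAA, against 26.5, 27.3 and 26.8 FPKM on 0.1 mg/L NAA (log2FC 0.57, limma, adjusted p = 0.0016). Hexokinases, which trap glucose in the cell, held 2 higher and 2 lower of 11 loci, and fructokinases 0 higher and 2 lower of 10. The most abundant fructokinase, Niben261Chr04g1742002, had 226 (replicate 1), 285 and 211 FPKM, against 299, 309.8 and 249.6 FPKM, with overlapping libraries (log2FC -0.25, limma, adjusted p = 0.16). Phosphofructokinases, which commit hexose phosphate to glycolysis and were caught by the word fructokinase, held 6 higher and 1 lower of 13 loci. Plastid carriers of glucose, glucose 6-phosphate and triose phosphate held 4 higher and 2 lower of 18 loci, and 1 of the 4, the plastidic glucose transporter Niben261Chr18g0471011, lost its call in 7 of 14 alternatives. Xylose-proton symporters held 1 higher of 2. Among inositol and polyol enzymes, inositol-3-phosphate synthases held 1 lower of 3 (Niben261Chr14g0732002, a call lost in 6 of 14 alternatives), the 3 inositol oxygenases had log2FC of -0.44 to 0.0044 and did not pass, and the single sorbitol dehydrogenase locus was lower (Niben261Chr02g0086007, with 86.6, 75.1 and 86.3 FPKM, against 97.1, 100.5 and 106 FPKM), a call lost under TPM, quantile normalization and without any 1 of the 0.1 mg/L NAA libraries.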

How the data were processed

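RNA of 6 explant libraries was analysed, 3 on 0.5 mg/L NAA and 3 on 0.1 mg/L NAA, grouped by the sample titles. The authors deposited 1 table of FPKM values with a protein description and gene ontology terms for each Niben261 locus. The study's methods name tools for later culture stages, and the read processing of these libraries is not given in the sources used here. The table holds FPKM only, so depth is unknown. From the steps of low FPKM values, depth relative to replicate 1 on 0.1 mg/L NAA was 0.986 to 1.04, except for 0.737 in replicate 3 on 0.1 mg/L NAA.

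Differences were tested with limma 3.58.1 in R 4.3.3 (empirical Bayes with a mean-variance trend), after a pseudocount of 1 and log2 transformation. Loci under a mean FPKM of 0.5 were left out, and p-values were adjusted by Benjamini and Hochberg's method over the remaining 32443. A fold change on this scale understates changes of weakly expressed loci. The transporters, their classes, the related families and the markers were chosen with earlier results of these data known, and the words for SWEETIE, N3-like, NEC1-like and phosphofructokinase were sorted into classes after the descriptions were seen.

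The rule for named loci took the loci listed as PLT3 and PLT6, all differentially expressed transporters, the most abundant and the most changed transporter of each class, the most abundant locus of each related family and the loci next to the FPKM minimum. Transporters named beyond it were chosen after their values were seen. Alternatives were no filter, a minimum of 1 FPKM, a pseudocount of 0.1, TPM, median-of-ratios, quantile normalization, no trend, no fold threshold, the replicate number as a block and each library left out. The ranges over left-out libraries for single loci and the count without nucleotide-sugar transporters and unclassed loci were added after seeing the data. The procedure was tested on simulated data for 32443 loci, where 179 of 200 loci changed by a log2FC of 1.5 were called with the right sign, beside 7 unchanged ones. The 200 were drawn only from the better expressed loci, and far fewer loci were changed than were called in the data. The simulation therefore does not cover weak loci or smaller changes. Plots were made in Python 3.11.15 (matplotlib 3.10.9).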

Additional observations from a re-analysis of the deposited data

How the results depend on the processing

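Without 1 library, 24 to 43 transporters were higher and 4 to 10 lower, 9 to 15 were differentially expressed and higher and 2 to 4 lower. The lowest counts came without replicate 1 on 0.1 mg/L NAA (24 higher, 4 lower) and without replicate 2 on 0.1 mg/L NAA (25 higher), and 4 loci were differentially expressed and lower without replicate 3 on 0.5 mg/L NAA. With no filter on low values 11 were lower. The count of differentially expressed lower loci was 1 with a minimum of 1 FPKM and 4 with a pseudocount of 0.1. With no fold threshold the counts were 40 and 7. Related loci numbered 17 higher without replicate 2 on 0.1 mg/L NAA to 32 higher, and 5 lower without replicate 1 on 0.1 mg/L NAA (7 without replicate 3 on 0.1 mg/L NAA) to 12 lower. Under TPM 53 related loci were higher and 6 lower (34.25% and 12.19% of all loci tested), and the median log2FC of the transporters was 0.42. The difference of mean sums under TPM (0.5 minus 0.1 mg/L NAA) was 822 for all transporters and 374 for SWEET. It was 179 for sugar transport proteins and hexose carriers, 70.2 for sucrose transporters, 64.7 for ERD6-like and 19.9 for nucleotide-sugar transporters. For monosaccharide-sensing proteins it was 11.4, for inositol transporters 11.3 and for the others 5.36. Among named loci, signs turned only at 3 uncalled related loci. The log2FC of fructokinase Niben261Chr04g1742002 was 0.13 under quantile normalization. That of inositol oxygenase Niben261Chr07g0283005 was 0.12 under TPM and -0.45 to 0.30 without 1 library. That of phosphofructokinase Niben261Chr19g0675008 was 0.16 under TPM, 0.0198 under quantile normalization and -0.23 to 0.0749 without 1 library. The replicate numbers did not pair the libraries (correlations of same-numbered deviations of 0.0096 to 0.0216). With the replicate number as a block 33 transporters were higher and 7 lower, against 18.75% higher and 18.19% lower over all loci tested. The cause of these changes was not tested. Unknown read counts limit the precision of values under about 1 FPKM.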
